A study of Mus musculus with 12 samples.

Results

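The genes described here are 52 regulators of alternative splicing: the hnRNP proteins, the Tra2 proteins, the kinases that phosphorylate SR proteins, and the RNA-binding proteins that set neuronal splicing patterns. They were taken by symbol from a fixed list, and all 52 are among the 34102 genes of the count table. The SR protein genes themselves are not in the list. The 52 fall into 12 families: 2 Tra2 genes, 6 kinases (Clk and Srpk), 3 Srrm genes, 14 hnRNP genes, 3 Ptbp, 2 Nova, 3 Rbfox, 4 Elavl, 3 Mbnl and 4 Celf genes, Qk with 3 Khdrbs genes, and 4 Rbm genes.

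The study asked what loss of Srsf10, an SR-type splicing factor, does to gene expression in developing mouse neocortex. Bulk RNA-seq of total RNA covered 12 libraries from C57BL/6 mice in 4 groups of 3. Control cortex (Srsf10 flox/flox, Nestin-Cre negative) and cortex labelled cKO (Srsf10 flox/flox, Nestin-Cre positive) both carry the floxed allele. Nestin-Cre drives recombination in neural progenitors and the cells they give rise to, and no group carries Cre without floxed Srsf10. The other groups are primary cultured neural progenitor cells (NPC), labelled WT and SRSF10 knockdown. These cells grew in suspension with bFGF and EGF, and RNA was taken 72 h after lentivirus was added (multiplicity 30). The virus given to WT cells, the age of the mice and whether libraries stand for separate animals or cultures were not stated in the sources used here. By Xist and Ddx3y each group held libraries of both sexes, so the libraries of a group did not all come from 1 animal; in NPC, replicates 1 and 2 were female and replicate 3 male in both groups. The p-values measure the spread between these libraries, which may in part be technical.

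Pre-mRNA splicing is steered by proteins that bind exons and introns and recruit or repel the spliceosome. SR proteins and the related Tra2 proteins mostly promote the use of exons they bind, and many hnRNP proteins repress it. CLK and SRPK kinases phosphorylate the serine- and arginine-rich domains of SR proteins and control their place in the nucleus. During neurogenesis Ptbp1 gives way to Ptbp2, and Nova, Rbfox, Elavl, Celf4 and Srrm4 proteins bring in neuronal exons. Many of these genes adjust their own mRNA by splicing in an exon that leads to nonsense-mediated decay (NMD). In the annotation 28 of the 52 (53.8%) have at least 1 NMD transcript, against 28.3% of all protein-coding genes tested in NPC. The members also have more annotated transcripts, a median of 10 against 5, and whether any of them regulates its own mRNA here was not tested. Only gene-level counts were used, and exon use was not analysed here.

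Sequence sharing limits what a count can say about several members, so a shared stretch is shown first. Hnrnpa1 (chromosome 15, mm10, positions 103240432 to 103246692, plus strand) shares 46.7% of the 50-base windows of its coding transcripts with 19 other annotated genes. The 50 coding bases below, from the GENCODE transcripts, are also held letter for letter by 6 other annotated genes, among them Gm10052, and the whole stretch is the shared part.
Hnrnpa1 chr15:103241500-103241549: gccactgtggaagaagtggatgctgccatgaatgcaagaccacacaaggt
A read inside such a stretch fits several genes, and how the authors' counting treated it was not stated in the sources used here. The share was highest for Rbm4, at 58.8%. Below Hnrnpa1 it was 41.0% for Rbm10, 36.8% for Hnrnpf, 27.7% for Hnrnpa3, 21.6% for Hnrnpm, 20.8% for Hnrnpk and 17.6% for Tra2b.

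The sequences of interest in a second pair of members are sites in the 3′ UTR. The hexamers ACCGAC and CCGACT had been singled out in these same NPC libraries because genes that carry them in the 3′ UTR lay low after knockdown, so they are a description here and no test. On the sense strand of annotated 3′ UTRs of at least 50 bases, 2 of 52 members carried one (3.85%), against 12.1% of 12693 genes tested in NPC. The hexamers overlap where they run on as ACCGACT, and capitals mark the match.
Ptbp1 chr10:79864516-79864542, plus strand: agagggtagtACCGACTgctcttccaa
Elavl1 chr8:4289391-4289416, minus strand: ctgggatgcaACCGACatgttcaaat
The Ptbp1 match starts 1249 bases into a 3′ UTR of 1494 bases, and the Elavl1 match 194 bases into one of 1257. Both genes fell in NPC labelled knockdown in the fit by pairs described below. A match says nothing of whether the site is used.

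The libraries held 26074094 to 36713205 counts. Srsf10 itself was checked first. In cortex it stood at 195, 218 and 198 CPM (counts scaled to a common library size, with 1 set of TMM factors for all 12 libraries) in controls and at 219, 184 and 220 CPM in the cKO group (log2 fold change 0.03, adjusted p = 0.917). In NPC it stood at 251, 229 and 226 CPM in controls and 241, 226 and 222 CPM after knockdown (log2 fold change -0.05, adjusted p = 0.774 without and 0.530 with the replicate block described next). No fall in Srsf10 passed the threshold in either system. In NPC the 95% interval with the block was -0.15 to 0.06 on the log2 scale, so a large fall in its count was not seen. The groups are therefore called by their labels throughout, and "after knockdown" names the label and not a measured fall. For the floxed cortex, a count per gene does not show whether an exon was deleted. The labelled cell types carried their markers: summed over 6 genes, neuron markers ranged from 8814 to 9105 CPM in control cortex and from 1032 to 1138 CPM in control NPC, and 6 radial glia and progenitor markers from 660 to 777 and from 7112 to 7473 CPM. Control NPC also held oligodendrocyte-lineage markers at 2763 to 2829 CPM, against 244 to 266 CPM in control cortex. Astrocyte markers summed to 780 to 853 CPM and intermediate progenitor markers to 4.29 to 5.62 CPM in control NPC. Choroid plexus markers differed between dissections, from 3.91 to 1225 CPM over the control cortex libraries and from 18.9 to 1086 CPM over the cKO libraries, high in control library 2 and cKO library 3.

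The first question is where these regulators stand before any loss of Srsf10. Between the control groups, 44 of 52 members differed with an adjusted p under 0.05, 25 of the 52 (48.1%) higher in NPC and 19 of the 52 (36.5%) lower. Among all genes tested, 38.4% were higher and 40.5% lower, so the members' share is near that of all genes. Tissue and culture, infection and the mix of cells differ at once in this comparison, and in bulk RNA fewer cells of a type cannot be told apart from less RNA per cell. The families divided sharply.

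**Figure D1:**
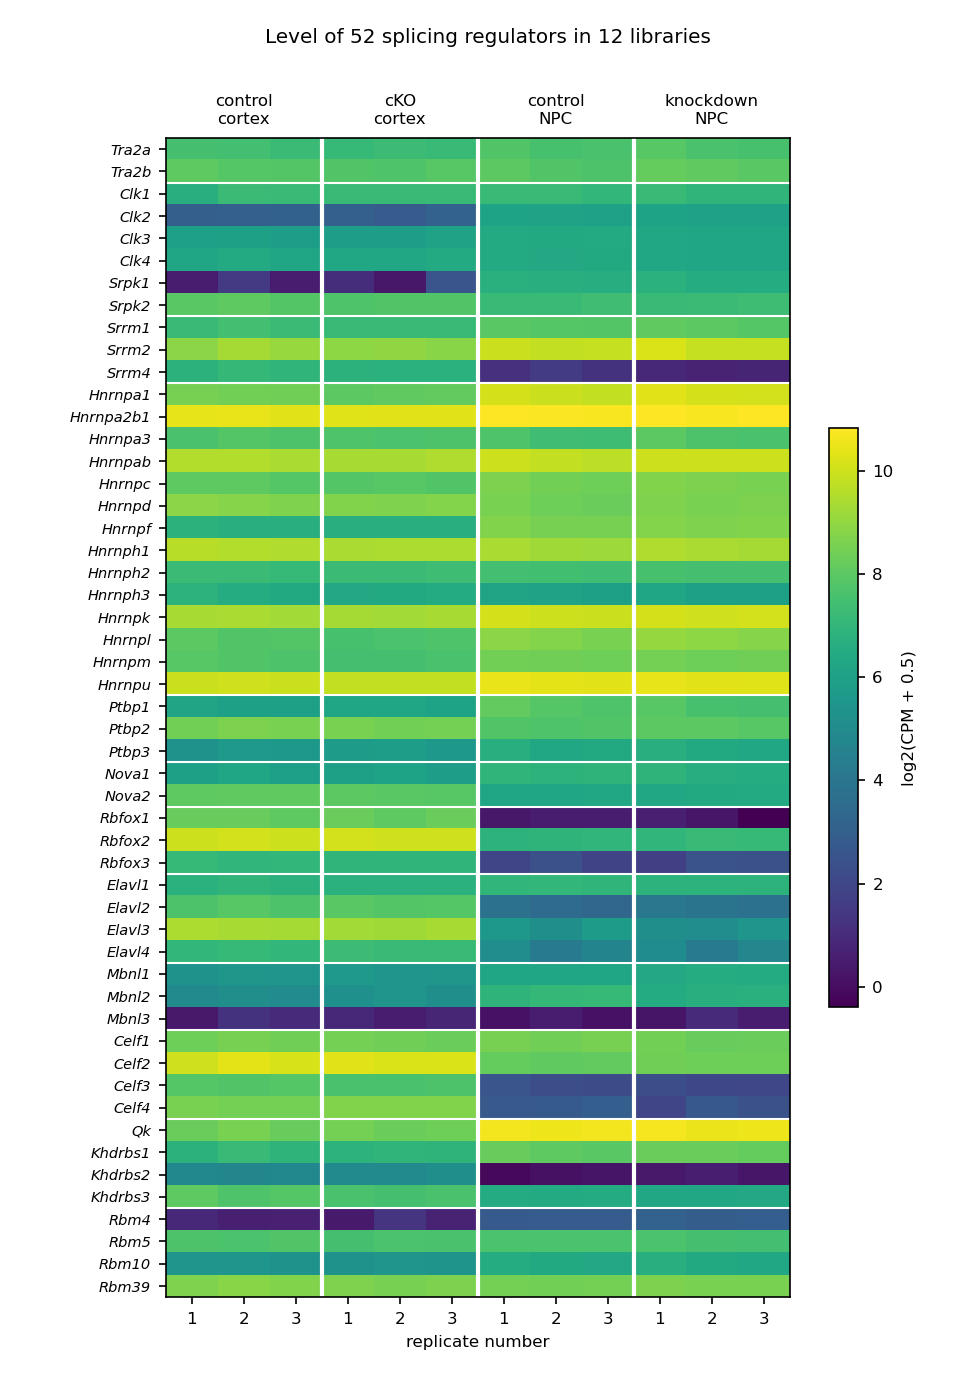
Level of each member (rows, by family) in each of the 12 libraries (columns, replicates 1 to 3 of each group), as colour on the log2(CPM + 0.5) scale. The neuronal genes Rbfox1, Rbfox3, Srrm4, Celf3, Celf4 and Khdrbs2 are dark in all NPC libraries, Srpk1 and Clk2 are dark in all cortex libraries, and treated and control columns of a system look alike.

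The neuronal regulators made up the lower end in NPC. Rbfox1, which promotes neuronal exons through UGCAUG elements, stood at 294, 301 and 266 CPM in control cortex and at 0.760, 0.924 and 0.928 CPM in control NPC, a log2 difference of -8.37 ± 0.12 (SE). Srrm4, the activator of neuronal microexons, stood at 112, 135 and 122 CPM and at 1.81, 2.54 and 1.86 CPM, a log2 difference of -5.90 ± 0.15. Celf4 (-5.80), Khdrbs2 (-5.65), Celf3 (-5.62), Rbfox3 (-5.14), Elavl2 (-4.28), Elavl3 (-3.83) and Rbfox2 (-3.08) were also lower in NPC on the log2 scale. Each of the 3 Rbfox genes was lower, as were 3 of 4 Elavl and 3 of 4 Celf genes, against 40.5% of all genes. The exceptions in these families were Elavl1, the broadly expressed HuR gene, and Celf1, at log2 differences of 0.15 and 0.04, neither past the threshold.

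The members of related families often went opposite ways between the systems. Ptbp1 was higher in NPC by 1.88 ± 0.11 on the log2 scale, at 280, 231 and 212 CPM against 70.8, 62.3 and 62.7 CPM in cortex. Its neuronal relative Ptbp2 was lower by a log2 difference of -0.79 ± 0.07. Nova1 was higher in NPC (0.86 ± 0.08) and Nova2 lower (-1.80 ± 0.07). Per kilobase of exon, Ptbp2 stood at 40.9 ± 2.55 and Ptbp1 at 13.8 ± 1.01 CPM per kb in control cortex (SD, n = 3), and in control NPC at 23.7 ± 0.32 and 50.9 ± 7.36, so their order turned.

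Of the 14 hnRNP genes 10 were higher in NPC and 3 lower (Hnrnpd, Hnrnph1 and Hnrnph3), with a median log2 difference of 0.39. Among all genes tested, 38.4% were higher and 40.5% lower. Core spliceosome genes lay much like the hnRNP genes, with 29 of 42 higher, 6 lower and a median of 0.44. Hnrnpab, Hnrnpa2b1 and Hnrnpa1 were among the 5 highest members per kilobase in both control groups, at 258 ± 13.3, 204 ± 10.7 and 111 ± 6.09 CPM per kb in cortex and 329 ± 33.1, 264 ± 10.3 and 312 ± 33.2 in NPC. Hnrnpa1 was higher in NPC by a log2 difference of 1.49, which came to 1.02 when its counts were summed with those of 13 annotated copies. Hnrnpa3 stood at -0.22 alone (adjusted p = 0.105) and at 0.38 (adjusted p = 0.00972) when summed with 31 copies, so its direction rests on how copies were counted. Qk, the quaking gene known for glial RNA processing, was higher by 2.25 ± 0.11 and Mbnl2 by 2.0 ± 0.10. Tra2a was higher by 0.24 ± 0.09 (adjusted p = 0.0383), while Tra2b, Clk1 and Clk4 did not pass (log2 differences -0.10, 0.09 and 0.09). The Tra2a call was lost with RLE size factors and with DESeq2. It was also lost without control NPC library 1, control cortex library 2 or control cortex library 3.

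The largest rises need their surroundings beside them. Srpk1, an SR protein kinase, was at 107, 99.4 and 97.2 CPM in control NPC and at 0.876, 2.33 and 0.912 CPM in control cortex, a log2 difference of 6.22 ± 0.30. Its cortex level rested on 26 to 200 counts a library and was highest in the libraries rich in choroid plexus markers. Of its 10 nearest genes in the table, 5 on each side, 8 were also higher in NPC by more than 2 on the log2 scale, with a median of 4.75, and only 1.01% of genes had a higher neighbour median. Clk2 was higher by 3.08 ± 0.10, at 66.4 ± 1.77 against 7.81 ± 0.21 CPM (SD, n = 3), while 1 of its 10 neighbours was higher by more than 2 (Scamp3, 4.43) and their median was -0.78. Rbm4 was higher by 2.53 ± 0.23 and shares 60.5% of its exon bases with the overlapping gene Gm21992, which was at 0 in all cortex libraries. Whether both systems were counted in the same way was not tested.

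The second question is what changed in cortex labelled cKO. No member passed an adjusted p of 0.05 in edgeR's quasi-likelihood test, against 0.171% of all genes tested (27 of 15781). At an unadjusted p under 0.05 there were 12 members (23.1%), 4 higher and 8 lower, against 10.9% of all genes. DESeq2 called 2, Hnrnpa1 and Khdrbs3, both lower, against 2.28% of all genes. In 14 members (26.9%) every cKO library lay below every control library, against 9.31% of all genes, and in 4 (7.69%) every cKO library lay above, against 8.26%. These shares of all genes include weakly expressed genes, and a share among well-expressed genes was not computed for cortex. The median over members was -0.06 on the log2 scale, and 35 of 52 were negative, against a median of 0.00337 over all genes.

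**Figure D2:**
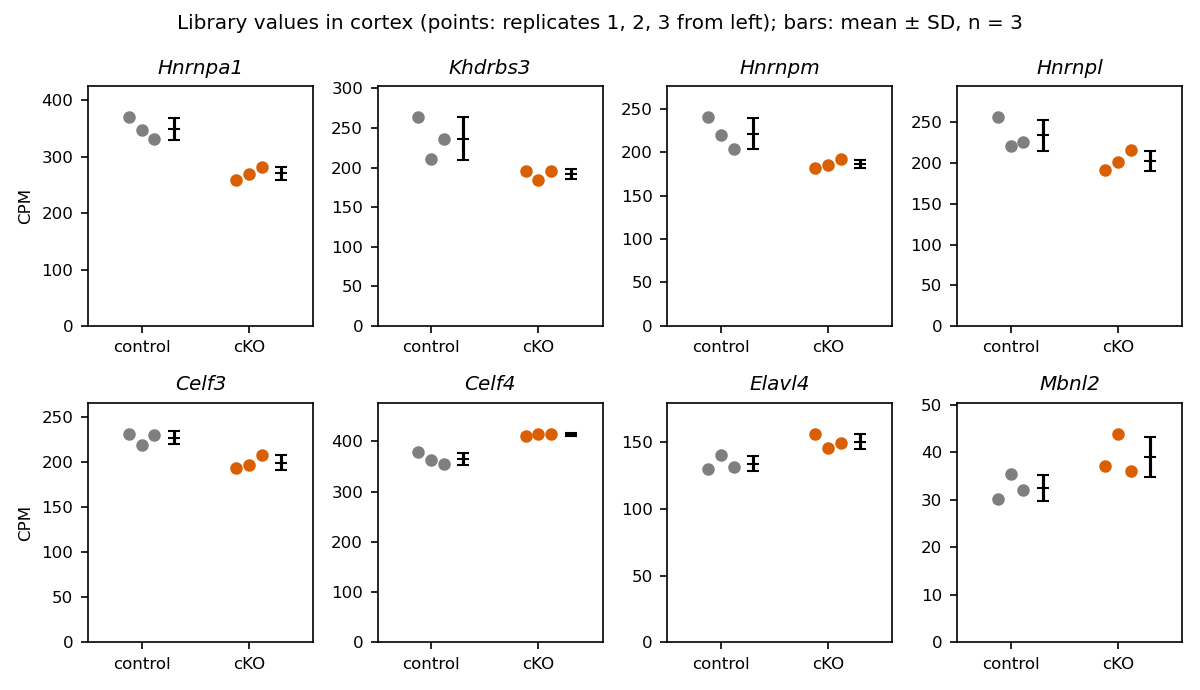
CPM of 8 members in each cortex library (points, replicates 1 to 3 from left in each group) with the mean and SD of the group. Hnrnpa1, Khdrbs3, Hnrnpm, Hnrnpl and Celf3 lie lower in all cKO libraries, and Celf4, Elavl4 and Mbnl2 higher, with log2 fold changes from -0.37 to 0.26.

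Hnrnpa1, a splicing repressor that counteracts SR proteins at many exons, had the smallest p. It stood at 370, 347 and 332 CPM in control cortex and 259, 270 and 282 CPM in the cKO group. The groups did not overlap, and Hnrnpa1 gave -0.37 ± 0.07 on the log2 scale (95% interval -0.52 to -0.22), with an adjusted p of 0.0706 in edgeR and 0.000203 in DESeq2. Its copy Gm10052, which holds the stretch printed above, stood at 202, 203 and 174 CPM and at 120, 134 and 136 CPM, and fell by 0.57 on the log2 scale (adjusted p = 0.0231). Which of the loci the reads came from was not tested. With 13 copies added to Hnrnpa1 the log2 fold change was -0.44 and the adjusted p was 0.0582. Leaving out single cortex libraries gave -0.41 to -0.33 and adjusted p of 0.0822 to 0.367.

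With Hnrnpa1 included, 13 of the 14 hnRNP genes had a negative log2 fold change, with a family median of -0.11, and 1 a positive one (Hnrnph2, 0.07). Between 11 and 13 were negative under the alternatives run. Hnrnpm stood at 240, 220 and 204 CPM in controls and 182, 185 and 192 CPM in the cKO group (-0.25 ± 0.07, adjusted p = 0.218). Of the Hnrnpm exon bases 14.7% overlap March2, whose values are not given here. Hnrnpl, the CA-repeat binder, stood at 256, 221 and 226 and at 191, 202 and 216 CPM (-0.21 ± 0.08, adjusted p = 0.355). In both genes every cKO library lay below every control library.

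Khdrbs3, which encodes SLM2, a regulator of neurexin splicing in neurons, stood at 263, 210 and 236 CPM in controls and 195, 185 and 196 CPM in the cKO group. Its log2 fold change was -0.30 ± 0.08, with an adjusted p of 0.205 in edgeR and 0.0453 in DESeq2. Its relative Khdrbs2 lay the other way, at 28.2, 26.8 and 28.6 CPM and 31.3, 31.4 and 36.7 CPM (0.25 ± 0.10, adjusted p = 0.370). Celf3 (-0.18, adjusted p = 0.306) and Celf4 (0.18, adjusted p = 0.312) also lay on opposite sides, each without overlap between groups. Celf4 was at 379, 363 and 356 CPM in controls and 410, 415 and 415 CPM in the cKO group.

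The remaining members of smallest p were Elavl4 (0.17 ± 0.06, adjusted p = 0.318), Srpk2 (-0.18 ± 0.07, adjusted p = 0.355) and Tra2a (-0.20 ± 0.08, adjusted p = 0.393). Tra2a stood at 183, 176 and 153 CPM in controls and 141, 159 and 145 CPM in the cKO group, so the groups overlapped. Tra2b, a splicing activator with SR-like domains, had a log2 fold change of -0.10 with a 95% interval of -0.26 to 0.07. The 95% intervals of 9 other regulators covered 0: Clk1 (0.17), Clk4 (0.06), Ptbp1 (0.15), Ptbp2 (-0.04), Nova1 (-0.06), Nova2 (-0.11), Rbfox1 (0.02), Rbfox3 (-0.10) and Srrm4 (-0.15). Mbnl2, a developmental splicing switch factor, was at 30.1, 35.5 and 32.1 CPM in controls and 37.1, 43.9 and 36.0 CPM in the cKO group (0.26 ± 0.10, adjusted p = 0.393). The 3 Srrm genes lay between -0.21 and -0.15 and the 4 Rbm genes between -0.14 and 0.23. Qk lay at 0.02 and Khdrbs1 at -0.06. Srpk1 lay at 0.93 with an SE of 0.64, on 32, 76 and 34 counts in controls and 54, 26 and 200 in the cKO group, so that its value rests on cKO library 3.

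Some cell-type marker sums differed between these groups, and others overlapped. The 5 interneuron markers summed to 372 to 428 CPM in control cortex and 295 to 331 CPM in the cKO group, all 5 negative and none called. The 5 oligodendrocyte-lineage markers summed to 244 to 266 and 207 to 211 CPM, all 5 negative, with Gpr17 called lower (log2 fold change -0.79). The 4 meninges markers summed to 17.4 to 146 and 102 to 159 CPM. Summed neuron markers overlapped, at 8814 to 9105 and 8695 to 9102 CPM. By Xist and Ddx3y, 1 control library and 2 cKO libraries were female. The part of cell types and of sex in the members' values was not tested further. With sex as a covariate, and without the choroid-rich libraries, 0 members were called. The main fit also called 0, so these counts cannot show that part.

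The third question is what changed in NPC labelled knockdown. Without regard to replicate numbers, 1 of 52 members was called, Mbnl2, against 1.89% of all genes (270 of 14258). In 7 members (13.5%) every knockdown library lay above every control library and in 7 below, against 11.4% and 11.8% of all genes. DESeq2 called 5 (Mbnl2, Mbnl1, Ptbp2, Clk3 and Celf2), against 7.54% of all genes. Libraries with the same replicate number deviated together, so the pair was also fitted as a block. In that fit 22 members were called (42.3%), 11 higher (21.2%) and 11 lower (21.2%), against 11.9% of all genes higher and 12.8% lower. Most members are well expressed. Among genes averaging 10 CPM or more over the NPC libraries, 30.8% were called in the paired fit, and among the 44 members at that level 20 (45.5%). The blocked count depends on the pairs. Leaving out pair 1 gave 27 called members, leaving out pair 2 gave 6 and leaving out pair 3 gave 7. Mbnl2, Hnrnpa3 and Celf2 were called in each of these 3 fits.

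**Figure D3:**
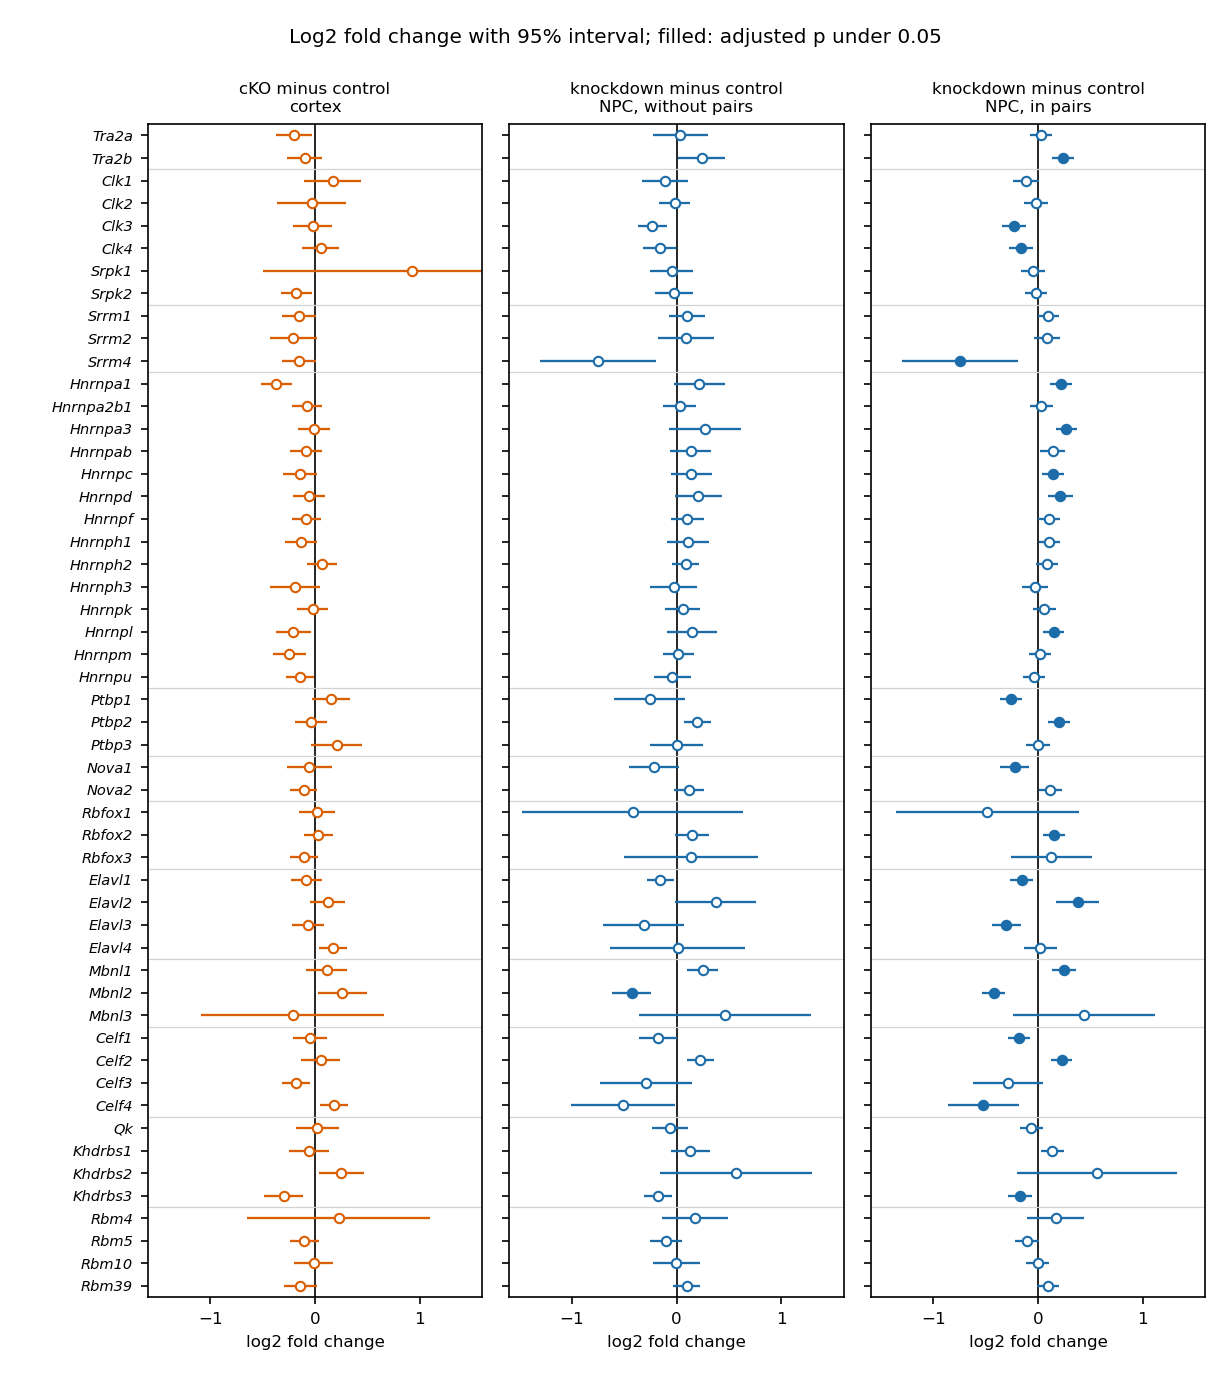
Log2 fold change (points) and 95% interval (lines) of every member in cortex, in NPC without pairs and in NPC with the pair as a block; filled points have an adjusted p under 0.05, and the Srpk1 interval in cortex runs past the axis. The intervals narrow with the block while the estimates stay, which takes the called members from 1 to 22.

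Mbnl2 gave the clearest single change in NPC. It stood at 119, 135 and 139 CPM in control NPC and 92.0, 98 and 105 CPM in NPC labelled knockdown. No library of one group reached the other, and it fell by 0.43 on the log2 scale (SE 0.08), with an adjusted p of 0.0484 without and 5.98e-05 with the block. Without the block, leaving out any single library ended the call, with adjusted p of 0.0611 to 0.215, as did RLE size factors (0.0527). Its relative Mbnl1 rose in the paired fit, from 74.3, 73.9 and 73.4 CPM to 82.7, 93.4 and 89.4 CPM (0.25 ± 0.05, adjusted p = 0.00473), and was higher in 3 of 3 pairs. Muscleblind proteins bind the same kind of YGCY sites, and many of their exons respond to either one. Mbnl3 stood at 0.615 to 1.4 CPM over the NPC libraries and did not pass.

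Ptbp1 and Ptbp2 lay on opposite sides as well. Ptbp1, whose protein represses Ptbp2 through an NMD exon, stood at 280, 231 and 212 CPM in controls and 241, 186 and 182 CPM after knockdown. The groups overlapped, each pair was lower, and it fell by 0.26 on the log2 scale in the paired fit (SE 0.05, adjusted p = 0.00205; 0.397 without the block). Ptbp2 stood at 220, 215 and 219 CPM and 258, 255 and 243 CPM, without overlap, and rose by 0.20 ± 0.05 in the paired fit (adjusted p = 0.00856; 0.123 without). Ptbp3 did not pass. Of the exon bases of Ptbp1, 20.7% overlap other genes, of which E130317F20Rik and Plppr3 stood at 10.3 and 2.21 CPM in control NPC. Both calls were lost without pair 2, and neither without pair 1 or pair 3.

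**Figure D4:**
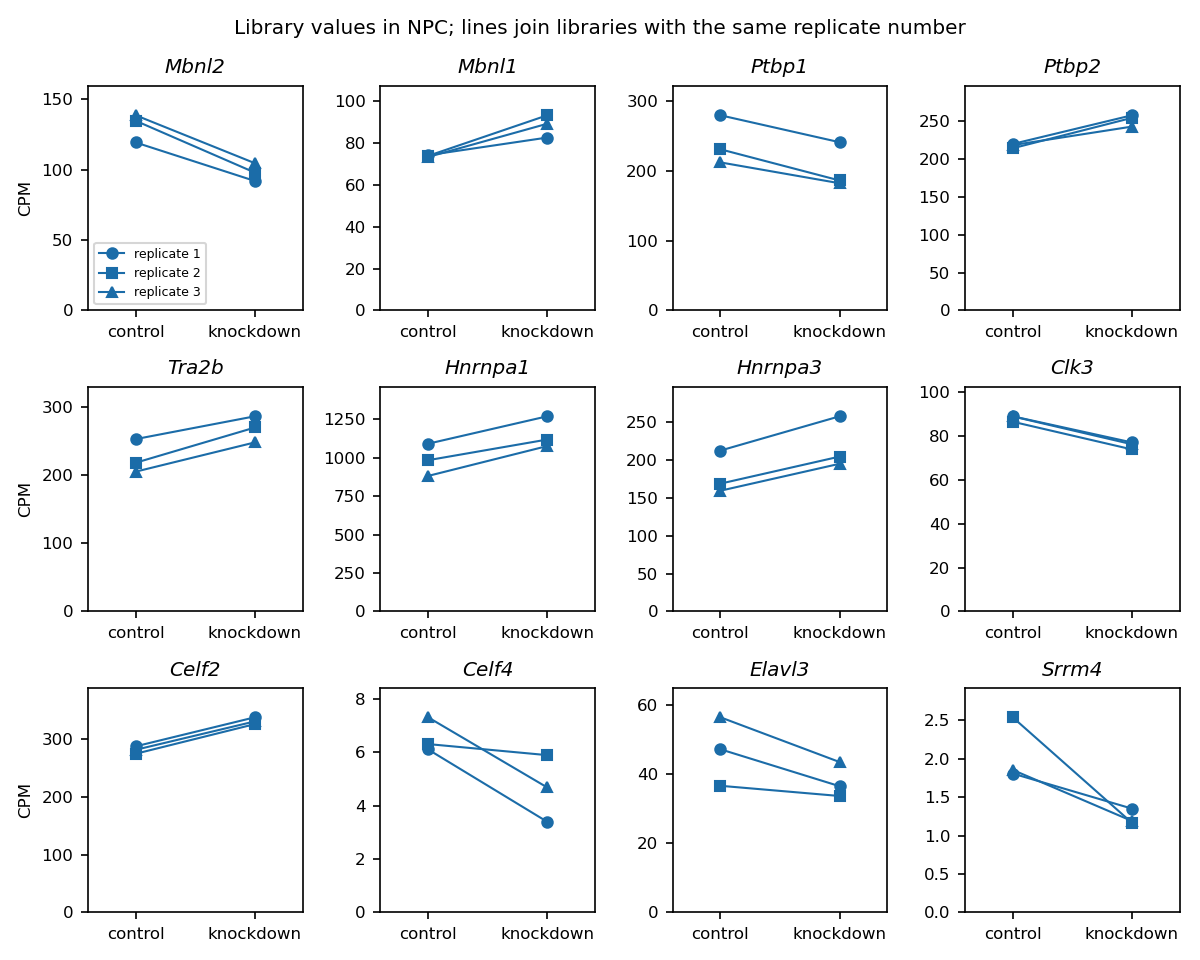
CPM of 12 members in the NPC libraries; lines join control and knockdown libraries with the same replicate number, and each axis starts at 0. Mbnl2, Ptbp1, Clk3, Celf4, Elavl3 and Srrm4 lie lower in each knockdown library than in its pair, and Mbnl1, Ptbp2, Tra2b, Hnrnpa1, Hnrnpa3 and Celf2 higher.

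Among the hnRNP genes 5 of 14 rose in the paired fit and none fell, where 11.9% of all genes rose and 12.8% fell, and 30.8% of genes averaging 10 CPM or more changed in either direction. The log2 fold change was positive in 12 of 14, with and without the block (11 to 14 over the alternatives), with a median of 0.11. Hnrnpa1 went from 1090, 983 and 881 CPM to 1269, 1117 and 1075 CPM (0.22 ± 0.05, adjusted p = 0.00555), and Gm10052 rose with it (0.27, adjusted p = 0.00262). Hnrnpa3 went from 213, 169 and 160 CPM to 258, 205 and 195 CPM (0.27 ± 0.05, adjusted p = 0.00105). The groups overlapped for both genes, while each pair was higher. Hnrnpd, which binds AU-rich RNA, rose by 0.21, Hnrnpl by 0.15 and Hnrnpc by 0.14 (adjusted p = 0.0122, 0.0347 and 0.0460). Without the block none of the 14 passed. With copies summed, Hnrnpa3 still rose (0.24, adjusted p = 0.00233).

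Tra2b, which binds GAA-rich exonic enhancers and controls its own level through an NMD exon, rose in the paired fit. It stood at 253, 219 and 205 CPM in controls and 287, 270 and 249 CPM after knockdown, higher in 3 of 3 pairs (0.24 ± 0.05, adjusted p = 0.00262; 0.251 without the block). The call was lost without pair 2 (highest adjusted p = 0.0542). Tra2a did not pass (0.03 ± 0.05, adjusted p = 0.718). All 6 kinases had negative log2 fold changes in NPC (5 or 6 over the alternatives). In the paired fit 2 of 6 fell, where 12.8% of all genes fell. Among genes averaging 10 CPM or more, 30.8% changed in either direction, so the kinase count is near that share. Clk3 went from 88.9, 86.4 and 88.8 CPM to 77.0, 73.8 and 76.2 CPM (-0.23 ± 0.05, adjusted p = 0.00554), and Clk4 from 86.8, 82.6 and 85.6 CPM to 80.9, 72.7 and 76.4 CPM (-0.16 ± 0.05, adjusted p = 0.0415). In both kinases every knockdown library lay below every control library. Clk1 (-0.11), Srpk1 (-0.05), Srpk2 (-0.02) and Clk2 (-0.02) did not pass. Of Clk3's exon bases 15.2% overlap Edc3, which had a log2 fold change of 0.02 in the paired fit.

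The neural families were split in NPC in the paired fit, which gave the fold changes and adjusted p in this paragraph. Without the block, edgeR called none of the genes named here, and Celf2 came nearest (adjusted p = 0.0895). Celf2 rose, at 288, 275 and 282 CPM in controls and 338, 327 and 331 CPM after knockdown (0.23 ± 0.05, adjusted p = 0.00325), while Celf1 fell by 0.18 (adjusted p = 0.0163). Celf4, low in these cells, went from 6.11, 6.31 and 7.32 CPM to 3.40, 5.90 and 4.69 CPM, from 164 to 213 counts a library to 88 to 177 (-0.52 ± 0.16, adjusted p = 0.0272). Elavl3 fell by 0.30 and Elavl1 by 0.16, and Elavl2 rose by 0.38 (adjusted p = 0.00431, 0.0377 and 0.0101), while Elavl4 lay at 0.02. Elavl2 was low, from 9.28 to 16.6 CPM over the 6 libraries. Nova1 fell by 0.22 (adjusted p = 0.0198) and Nova2 did not pass (0.12, adjusted p = 0.124). Rbfox2 rose by 0.15 and Khdrbs3 fell by 0.17 (adjusted p = 0.0404 and 0.0281). Rbfox1 (-0.48) and Rbfox3 (0.13) did not pass and stood at 0.260 to 1.0 and 2.82 to 5.13 CPM over the NPC libraries. Khdrbs2 was higher in each knockdown library than in any control (0.57 in the paired fit, adjusted p = 0.282), at 11 to 29 counts. Qk (-0.07), Khdrbs1 (0.14), Srrm1 (0.10), Srrm2 (0.08) and the 4 Rbm genes (-0.10 to 0.17) did not pass.

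Srrm4 had the largest log2 fold change of the called members. It went from 1.81, 2.54 and 1.86 CPM to 1.35, 1.17 and 1.19 CPM, 50, 66 and 54 counts against 35, 35 and 32. The groups did not overlap, and it fell by 0.75 on the log2 scale in the paired fit (SE 0.25, adjusted p = 0.0488; 0.166 without the block). Without pair 1 the adjusted p was 0.0133, and the call was lost without pair 2 and without pair 3 (highest adjusted p = 0.383).

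Of the calls in the paired fit, Khdrbs3 was lost whichever pair was left out. Beside Ptbp1, Ptbp2 and Tra2b, the calls of Hnrnpa1 (without pair 2) and of Celf4, Elavl2 and Elavl3 (without pair 3) were lost in 1 of 3 omissions. The other 11 (Clk3, Clk4, Srrm4, Hnrnpc, Hnrnpd, Hnrnpl, Nova1, Rbfox2, Elavl1, Mbnl1 and Celf1) held only without pair 1. The highest adjusted p among these omissions was 0.383. DESeq2 with the same block did not call Srrm4, Clk4, Rbfox2, Elavl1, Elavl2, Celf4 and Khdrbs3, with adjusted p of 0.0503 for Elavl2 to 0.213 for Srrm4.

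Some cell-type marker sums also differed between the NPC groups. The 5 astrocyte markers summed to 780 to 853 CPM in controls and 1007 to 1159 CPM after knockdown, with 4 called higher and Gfap lower in the paired fit. The neuron markers summed to 1032 to 1138 and 1089 to 1368 CPM, and of these 6 genes Syt1 alone was called, lower (-1.20 without the block). The 5 oligodendrocyte-lineage markers summed to 2763 to 2829 and 2915 to 2997 CPM, and the 4 vessel markers to 15.2 to 20.4 and 9.46 to 11.2 CPM. Members of other lists were also called in the paired fit, among them Pdgfra, Sox2, Gad2 and Flt1 lower and Nes, Sox5 and Pou3f2 higher. Their part in the members' values was not tested.

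The fourth question is whether the cortex and NPC effects differ. The contrast of both effects in 1 fit of all libraries called 2 of 52 members (3.85%), against 1.46% of all genes. Mbnl2 had a positive log2 fold change in cortex, where edgeR did not call it (adjusted p = 0.393), and was lower in NPC. The difference was -0.68 ± 0.14 (NPC minus cortex, log2, adjusted p = 0.0301). Hnrnpa1 lay the other way, with a difference of 0.60 ± 0.13 (adjusted p = 0.0403), and edgeR did not call it in cortex either (adjusted p = 0.0706). With the pair as a block in NPC, 5 members were called. Hnrnpa1 (0.60, adjusted p = 0.00210) and Hnrnpl (0.37, adjusted p = 0.0498) were 2 of 52 on the positive side (3.85%), against 2.41% of all genes. Mbnl2 (-0.67, adjusted p = 0.00703), Celf4 (-0.69, adjusted p = 0.0161) and Ptbp1 (-0.40, adjusted p = 0.0286) were 3 of 52 on the negative side (5.77%), against 2.64%. Leaving out single libraries without the block kept the Hnrnpa1 call in 2 of 12 fits and the Mbnl2 call in 5 of 12, with adjusted p up to 0.122 and 0.0922. With the block they held in 9 of 9 and 8 of 9, the exception being Mbnl2 without NPC pair 2 (adjusted p = 0.0587). In those 9 fits the blocked call of Celf4 held in 7 (lost without NPC pair 1 or pair 3), that of Ptbp1 in 3 and that of Hnrnpl in 2. Hnrnpa1 with its copies summed gave 0.67 (adjusted p = 0.0329).

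**Figure D5:**
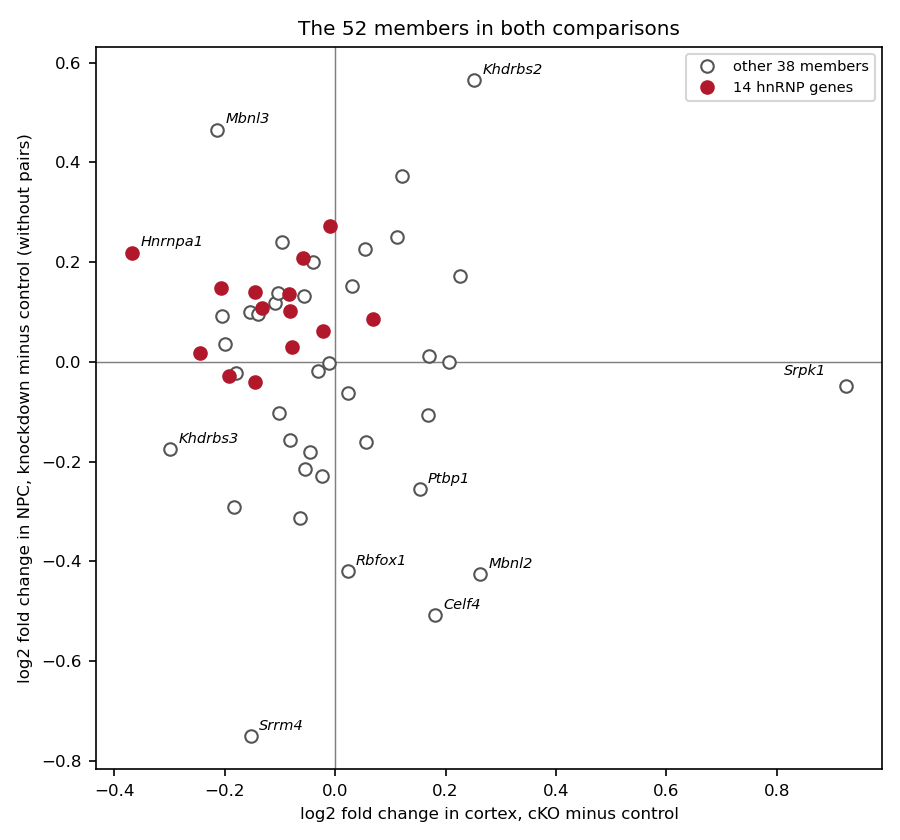
Log2 fold change of each member in cortex (horizontal) against NPC without pairs (vertical), hnRNP genes in red. Of the 14 hnRNP genes 11 lie at the upper left, negative in cortex and positive in NPC, and Mbnl2, Celf4 and Ptbp1 lie at the lower right.

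For all 14 hnRNP genes the NPC effect was above the cortex effect, by 0.03 to 0.60 on the log2 scale with a median of 0.24, against a median of 0.0237 over all genes; of these differences 1 passed without the block and 2 with it. The same difference was positive in 34 of 42 core spliceosome genes (median 0.12) and in 36 of 45 further splicing regulators (median 0.13). Without control cortex library 2 the count was 13 of 14. The signs in the separate comparisons agreed in 3 of the 14. Over all 52 members, the cortex and NPC fold changes had Pearson's r of -0.06 and Spearman's rho of -0.07 across genes, which are not independent replicates, and 44.2% had the same sign, against 52.3% of all genes. The cortex and NPC comparisons share no library.

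Other splicing genes give the setting. Of 47 further regulators, 44 were tested in cortex and in NPC. In cortex 0 were called, 35 were negative and the median was -0.10, with Rbmx (-0.24), Hnrnpdl (-0.25) and Prpf4b (-0.23) of smallest p. In NPC 0 were called without the block (smallest p Son, Pspc1 and Zfr) and 4 rose and 3 fell with it, led by Celf5 (-0.67, adjusted p = 1.14e-05), Pspc1 (0.26) and Son (-0.25). Of 42 core spliceosome genes 1 was called in cortex: Sf3b3, a subunit of the U2 snRNP, stood at 179, 169 and 177 CPM in controls and 138, 127 and 128 CPM in the cKO group and fell by 0.42 (adjusted p = 0.0348). U2af2 (-0.35, adjusted p = 0.120) and Snrnp70 (-0.21) followed. In NPC 0 of 42 were called without the block and 2 rose and 1 fell with it: Luc7l2 (0.23) and Snrnp200 (0.16) higher and Sf3b4 (-0.28) lower. Between the control groups 29 of 42 core genes were higher in NPC and 6 lower, and of 45 further regulators tested there 19 were higher and 20 lower.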

How the data were processed

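Per the submitters' processing notes, reads were aligned with HISAT2 (version not stated) to mm10; the counting program, its annotation and its strand setting were not stated in the sources used here. The authors deposited raw counts per gene, 1 column per library, checked here to hold whole numbers. With edgeR 4.0.16 in R 4.3.3 they were scaled by TMM, filtered with filterByExpr, and tested with the quasi-likelihood test on the libraries of each comparison, with Benjamini-Hochberg adjustment over all genes tested; an adjusted p under 0.05 was called. All 52 members passed the filter in every comparison. Levels are CPM with TMM factors over all 12 libraries; a log2 fold change is the group labelled cKO or knockdown minus its control, printed with ± its standard error, and ± beside a CPM is an SD. Same-numbered libraries paired in NPC (residual correlations 0.47, 0.49 and 0.44) but in cortex did not (0.02, -0.17 and -0.02). The replicate block is therefore given beside each NPC result. Replicates differed by more than counting noise (chi-square per degree of freedom 7.26 to 40.1).

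Gene models came from GENCODE vM21 on the same build, which held 34065 of 34102 identifiers. The members, lists and tests were chosen with earlier results of these data known. Named were members with a call in cortex or NPC, the 10 of smallest p in each comparison, those called between systems, the 5 largest rises and falls between control groups, and 11 set members. Gm10052, Scamp3, Mbnl3, Elavl2 and other members outside this rule were named after their values were seen. The alternatives were RLE size factors, no filter, DESeq2 1.42.0, 1 fit of all libraries, leaving out libraries, sex as a covariate, and leaving out libraries above 1000 CPM of Ttr. Summing copies, and leaving out libraries from the blocked difference between systems, were chosen after seeing the data. The procedure was tested on simulated data. Figures used matplotlib 3.10.9 with Python 3.11.15. 1 marker gene and its list's sum in cortex are not reported here.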

Additional observations from a re-analysis of the deposited data

Results flagged for a closer look

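The cortex and NPC effects differed for 2 members without the replicate block and 5 with it, by the test of the difference itself, where 1.46% of all genes passed without it and 2.41% higher and 2.64% lower with it. Mbnl2 gave -0.675 on the log2 scale (NPC minus cortex) and Hnrnpa1 0.600 without the replicate block. With the block in NPC the values were 0.601 for Hnrnpa1, -0.674 for Mbnl2, -0.685 for Celf4, -0.398 for Ptbp1 and 0.370 for Hnrnpl. When single libraries or pairs were left out, the calls of Ptbp1 and Hnrnpl held in 3 and 2 of 9 fits. Mbnl2, Celf4 and Ptbp1 were positive in cortex and negative in NPC, and both hnRNP genes the reverse. In cortex edgeR called none of the 5 on its own. Tissue and culture, and deletion and knockdown, differ at once between the 2 systems and cannot be told apart.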

How the results depend on the processing

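In cortex, 0 members called became 1 with no low-count filter (Hnrnpa1) and 2 with DESeq2, and stayed 0 under RLE size factors, the replicate block, the fit of all libraries, sex, and each omission. In NPC, 1 called member became 0 with RLE size factors, 5 with DESeq2, 2 in the fit of all libraries (Srrm4 and Mbnl2) and 0 to 1 when single libraries were left out; the 1 was Nova1, without knockdown library 1. With the replicate block it became 22, also 22 with RLE size factors, 22 with no filter and 15 with DESeq2, and 27, 6 and 7 without pairs 1, 2 and 3. For the difference between systems, 2 became 3 with DESeq2 (Celf4 added), 5 with the replicate block, 0 to 2 without single libraries, and 2, 3, 4, 5 or 6 with both. Between control groups 44 ranged from 42 to 45. Among the log2 fold changes followed gene by gene under these alternatives, none changed sign. Srpk1 in cortex and Ptbp3 in NPC, among other members that did not pass, were not followed in this way. Counts by family show that some signs did change. In cortex 13 hnRNP genes were negative in the main fit and 11 without cKO library 2. In NPC 12 hnRNP genes were positive in the main fit and 14 without control library 1. Summing copies, chosen after seeing the data, turned Hnrnpa3 between control groups from -0.22 to 0.38. With the block only the NPC and between-system calls changed. With 3 libraries a group, the spread between libraries limits precision more than depth, and genes near 1 CPM (Srrm4, Rbfox1, Mbnl3, Khdrbs2 in NPC) rest on 7 to 66 counts a library.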
